A study of Mus musculus with 6 samples.

Results

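The genes described here are those of Wnt signalling that encode its ligands, Frizzled receptors, Lrp co-receptors, secreted inhibitors, Dishevelled and Axin proteins and nuclear effectors. They were chosen by symbol alone (the Wnt, Fzd, Sfrp, Dkk, Lrp5 and Lrp6, Axin, Dvl, Tcf7, Lef1 and Ctnnb1 names) among genes above 0 in at least 2 of 6 libraries, which gave 44 of the 31245 genes in the deposited table. They comprise 17 ligands, 10 Frizzled receptors, 2 co-receptors, 5 secreted inhibitors, 3 Dishevelled and 2 Axin genes and 5 nuclear effectors. Of the 49 mouse symbols that match the names, Wnt8a, Dkk1 and Dkk4 are not in the table, and Wnt3a and Sfrp5 were above 0 in 1 library each, with 3 counts in vehicle 1 and 5 counts in NGPF2 1. The gene inside the limit with the fewest libraries above 0 was Lef1, with 4. The cultures were cortical cells of mouse pups of postnatal day 1, grown for 12 to 13 days in maintenance medium with B27 and given either vehicle (PBS) or NGPF2 at 1.5 ng/ml, each for 2 h. There were 3 cultures per group, in 3 pairs of vehicle and NGPF2 that the series describes as separate experiments. The labels name neither the strain nor the sex, nor how many pups went into a culture.

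Wnt proteins are secreted, lipid-modified ligands that bind a Frizzled receptor together with Lrp5 or Lrp6. In the canonical branch, Dishevelled and Axin proteins are recruited to the receptor, beta-catenin (Ctnnb1) is no longer degraded, and it acts with Tcf and Lef proteins on target genes. Other branches run through Frizzled without beta-catenin and act on cell polarity and calcium. In the cortex the pathway is known for patterning, axon growth and synapse formation, and both neurons and glia make ligands and receptors.

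Whole counts recovered from the table totalled 44788235, 32914352 and 24311967 in vehicle 1, 2 and 3. In NGPF2 1, 2 and 3 they totalled 45193691, 27105565 and 17478070. In pairs 2 and 3 NGPF2 was the shallower library, so depth and treatment ran together there. The part of depth in the differences was not tested. Levels are given as normalized counts, scaled for the depth of each library, and always in the order of replicates 1, 2 and 3. A log2 difference is of the normalized count plus 1, which understates the change of low genes. The library names in the sample titles share a stem in replicates 2 and 3 of both groups and not in replicate 1, and replicate 1 stood apart from them in its levels, so each result is given by pair and for replicates 2 and 3 on their own. All 8 markers listed for neurons in general were above 0 in every library, with summed normalized counts of 176149, 195546 and 192948 with vehicle and 175237, 247656 and 239022 with NGPF2, and 5 of them rose in replicates 2 and 3. Glia were present too. All 13 astrocyte markers tested fell in replicates 2 and 3, where their sum went from 87851 and 79682 to 26079 and 22289 and Gjb6 was at 0 in NGPF2 2 and 3. In replicate 1 that sum was 35338 with vehicle and 39409 with NGPF2. Of 11 microglia markers tested 8 fell, and their sum went from 1117 and 1062 to 383 and 388 against 2121 and 2236 in replicate 1. Aif1 and Tmem119 were at 0 in NGPF2 2 and 3, Cx3cr1 in NGPF2 2 and Itgam in NGPF2 3. Of 8 cycling cell markers 7 fell, and their sum went from 3619 and 3524 to 1871 and 1804 against 2046 and 2046 in replicate 1. Of the other lists, 5 of 10 progenitor markers, 4 of 6 oligodendrocyte precursor markers, 2 of 9 oligodendrocyte markers, 1 of 6 choroid plexus and ependymal markers and 5 of 11 fibroblast and mural markers fell, and 1 fibroblast and mural marker rose. None of 3 endothelial markers passed. Of 10 excitatory and of 10 inhibitory neuron markers, 4 rose and 3 fell in each list. The markers that fell moved with each Wnt gene said here to fall in replicates 2 and 3, and their part in it was not tested. In bulk RNA, fewer cells of a type and less RNA per cell cannot be told apart.

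In replicates 2 and 3 more Wnt genes fell than rose with NGPF2. Of the 40 genes whose normalized counts averaged 10 or more, 12 fell and 1 rose (limma, 2 libraries against 2, adjusted p under 0.05 over all genes tested). That is 30.0% lower, where 11.3% of all 16653 genes tested were lower, and 2.5% higher, where 9.77% were higher. The 12 were the ligands Wnt5a, Wnt7a and Wnt9a, the receptors Fzd2, Fzd5, Fzd6, Fzd7 and Fzd10, the co-receptors Lrp5 and Lrp6, and the nuclear effectors Tcf7l1 and Tcf7l2. The 1 that rose was the ligand Wnt10a. By class, 3 of 14 ligands tested, 5 of 10 Frizzled receptors, 2 of 2 co-receptors and 2 of 4 nuclear effectors fell. The genes below the limit of 10 were Wnt3, Wnt8b, Wnt11 and Lef1, and they were tested only without that limit.

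**Figure D1:**
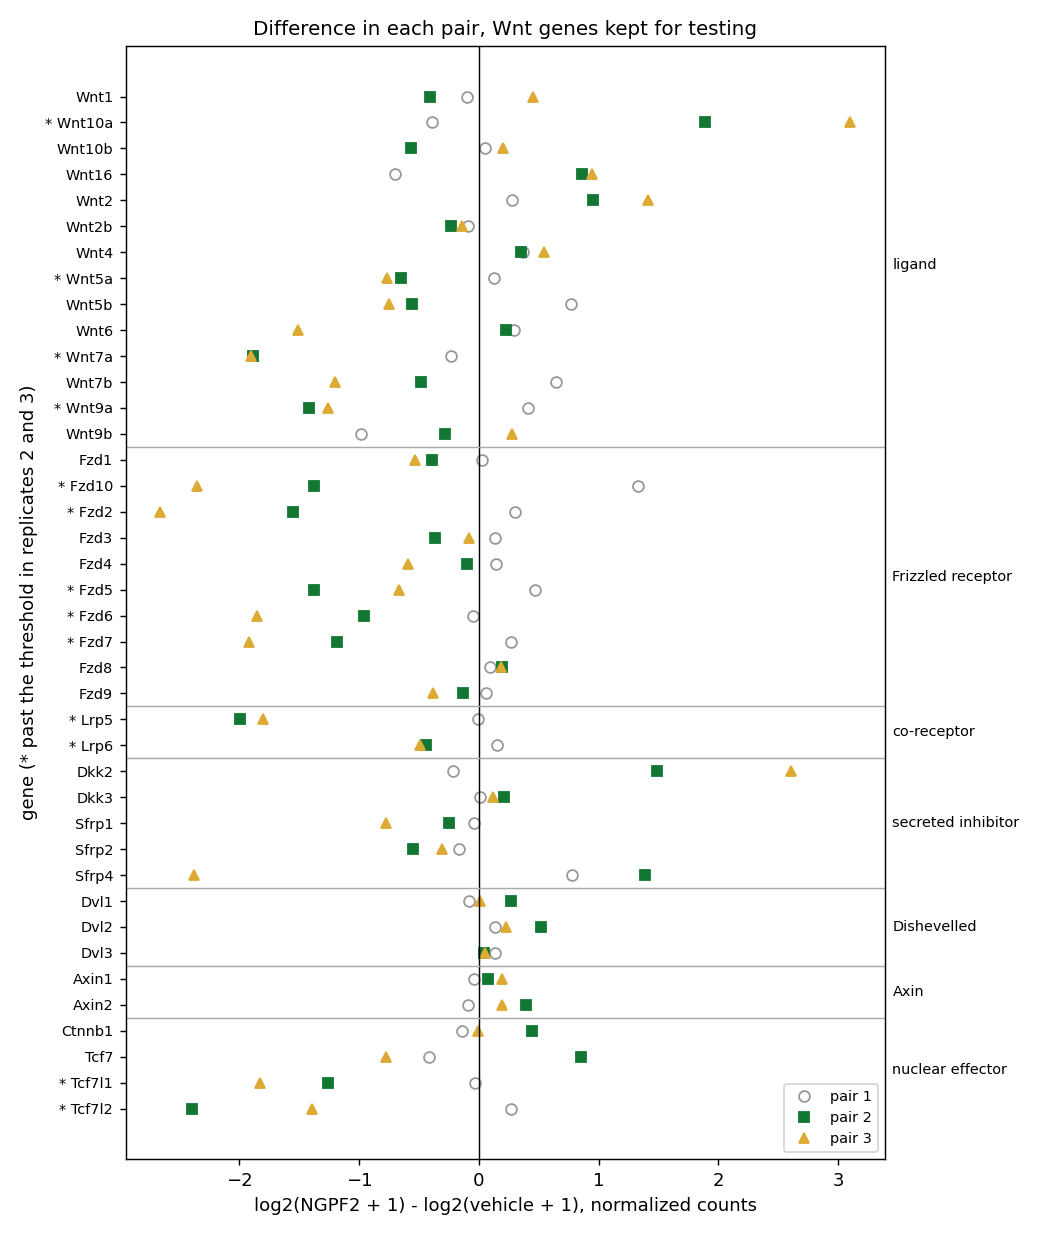
Difference between NGPF2 and vehicle on the log2 scale of normalized count plus 1 (horizontal axis) for the 40 genes tested, by role. Circles, squares and triangles are pairs 1, 2 and 3, and an asterisk marks the 13 genes that passed the threshold in replicates 2 and 3. Pair 1 lies near 0 for most genes. The marked genes lie away from 0 on one side in both other pairs, which is built in, since those pairs picked them.

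Pair 1 differed little between vehicle and NGPF2 in most of these genes. The 40 genes had median log2 differences of 0.06, -0.27 and -0.44 in pairs 1, 2 and 3, where the medians over all genes tested were -0.003, -0.006 and 0. Of the 40 genes 1 differed by more than 2-fold in pair 1, 12 in pair 2 and 15 in pair 3, or 2.5%, 30.0% and 37.5%, against 2.43%, 15.4% and 15.9% of all genes. In the fit over the 3 pairs (limma with the pair as a block) 0 of the 40 genes passed, and 0% of all genes did. With an unadjusted p under 0.05 there were 4 of the 40 (10%, against 13.0% of all genes), namely Wnt7a, Wnt4, Lrp5 and Wnt2, each with an adjusted p of 0.379 by limma, and 0 passed with voom on the recovered counts. Of the 40 genes 7 were below vehicle in all 3 pairs (17.5%, against 18.9% of all genes) and 6 above it in all 3 (15.0%, against 17.6%). These shares lie near those of all genes.

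The calls within replicates 2 and 3 depended on single libraries. Without vehicle 2 or without vehicle 3, 0 of all 16653 genes passed, and the 13 Wnt genes had adjusted p between 0.125 and 0.285 (limma). At an unadjusted p under 0.05 there were 12 of the 40 (30.0%) in each of these fits, against 21.7% and 21.8% of all genes. Without NGPF2 2 or without NGPF2 3, 8 and 6 of the 13 passed. Wnt5a, Wnt10a, Fzd5 and Fzd10 passed in none of the 4 fits that leave out a library. The direction of the 13 was the same in each of these fits. With another scaling the split moved from 12 lower and 1 higher to 9 lower and 4 higher (quantile normalization) or 13 lower and 3 higher (voom with TMM).

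Among the genes that fell in replicates 2 and 3, 7 had a window, and those of Wnt7a, Wnt9a and Fzd5 are printed here. The window of Axin2, the feedback gene induced by beta-catenin with Tcf and Lef, which did not pass, is printed beside them. The 4 windows are the 250 bases before the start of each gene. They are from RefSeq, build GRCm38.p6, written 5′ to 3′ on the strand of the gene, at chr6:91411354-91411603, minus strand for Wnt7a, chr11:59306680-59306929, plus strand for Wnt9a, chr1:64737751-64738000, minus strand for Fzd5 and chr11:108920099-108920348, plus strand for Axin2. Capitals mark a GC box (GGGCGG, or CCGCCC on the other strand), the letters bound by Sp1 and related factors.
Wnt7a: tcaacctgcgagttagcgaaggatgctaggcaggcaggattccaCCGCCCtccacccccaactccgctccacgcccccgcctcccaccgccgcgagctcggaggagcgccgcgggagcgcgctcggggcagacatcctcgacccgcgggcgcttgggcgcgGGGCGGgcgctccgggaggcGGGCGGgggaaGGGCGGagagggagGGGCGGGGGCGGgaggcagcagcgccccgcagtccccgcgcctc
Wnt9a: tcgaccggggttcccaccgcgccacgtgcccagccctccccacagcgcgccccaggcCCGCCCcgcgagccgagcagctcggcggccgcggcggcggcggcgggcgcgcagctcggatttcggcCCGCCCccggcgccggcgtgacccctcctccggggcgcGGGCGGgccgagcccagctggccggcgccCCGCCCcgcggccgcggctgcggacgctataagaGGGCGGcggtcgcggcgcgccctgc
Fzd5: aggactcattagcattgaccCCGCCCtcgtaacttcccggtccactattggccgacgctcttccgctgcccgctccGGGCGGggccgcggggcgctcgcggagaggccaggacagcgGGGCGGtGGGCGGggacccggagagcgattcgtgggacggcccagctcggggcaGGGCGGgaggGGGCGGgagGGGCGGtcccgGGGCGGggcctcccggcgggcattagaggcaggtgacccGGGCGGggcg
Axin2: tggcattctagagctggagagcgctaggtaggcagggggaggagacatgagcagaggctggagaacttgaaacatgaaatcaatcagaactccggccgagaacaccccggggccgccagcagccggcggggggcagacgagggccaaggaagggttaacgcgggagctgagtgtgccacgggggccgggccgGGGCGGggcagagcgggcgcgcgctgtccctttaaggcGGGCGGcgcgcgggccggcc
These windows held 6, 5, 9 and 2 GC boxes in that order. Of their bases 77.6%, 84.4%, 76.4% and 69.2% were G or C, against a median of 52.4% over all windows. Unprinted windows of genes that fell held 6 GC boxes (Fzd7), 1 (Fzd10), 2 (Tcf7l1) and 6 and 0 (Tcf7l2). Wnt4 and Fzd4, which did not pass, had 8 and 7, so the number did not set apart the genes that fell. Of the 44 genes 31 had a window in the table, and 26 of them (83.9%) held a GC box in at least 1 of their windows, as did 35.4% of all 27025 genes with one. The letters of a Tcf/Lef element, CTTTGAA or CTTTGAT on either strand, which do not overlap the GC box, were found in 2 of the 31, Wnt5b and Wnt11 (6.45%), and in 8.63% of all genes, and in none of the 4 windows printed. A match is a description of letters in this window only.

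Among the ligands, Wnt9a and Wnt7a fell in replicates 2 and 3 with the smallest adjusted p. Wnt9a (ENSMUSG00000000126, chromosome 11, 59306928 to 59333552, GENCODE M21 on mm10) encodes a ligand known from joint and blood stem cell development. It stood at 78.7, 663 and 621 normalized counts with vehicle and 105, 247 and 258 with NGPF2. In replicates 2 and 3 both NGPF2 libraries were far below both vehicle libraries, whereas replicate 1 was low in both groups and had its higher value with NGPF2. The fall was 2.53-fold (log2 difference -1.34, SE 0.11, adjusted p = 0.00335, limma), and the log2 differences of pairs 1, 2 and 3 were 0.41, -1.42 and -1.26. Wnt9a was the 1 gene of the 40 whose effect differed between replicates 2 and 3 and replicate 1 (log2 difference -1.75, SE 0.23, adjusted p = 0.0341, limma interaction), where 1.77% of all genes tested had a more negative effect and 0.721% a more positive one. Replicate 1 has 1 library per group, so its spread is taken as that between replicates 2 and 3, and the call was lost without any 1 of the 4 other libraries (adjusted p between 0.0567 and 0.352).

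Wnt7a (ENSMUSG00000030093, chromosome 6, 91363981 to 91411363) encodes a ligand that is known to act on presynaptic assembly and, with Wnt7b, on the vessels of the brain. It stood at 482, 595 and 499 normalized counts with vehicle and 410.03, 160.2 and 133 with NGPF2. The 2 libraries with NGPF2 in replicates 2 and 3 were below every other library, and the fall there was 3.71-fold (log2 difference -1.89, SE 0.17, adjusted p = 0.00384, limma). Pair 1 went the same way by less, with log2 differences of -0.23, -1.89 and -1.90 in pairs 1, 2 and 3. Over the 3 pairs its mean was 525 ± 60.8 with vehicle and 234.3 ± 153 with NGPF2 (SD, n = 3 each), and the groups did not overlap. It did not pass over the 3 pairs (log2 difference -1.34, SE 0.36, adjusted p = 0.379, limma), and the test of a difference between the batches did not pass either (log2 difference -1.66, SE 0.28, adjusted p = 0.0584, limma interaction). With the replicate block added to that fit the adjusted p was 0.0347.

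Wnt5a (ENSMUSG00000021994, chromosome 14, 28504750 to 28527448), the main ligand of the branches without beta-catenin, stood at 644, 504 and 611 normalized counts with vehicle and 702, 320.4 and 359 with NGPF2. NGPF2 2 and 3 were below all other libraries. The fall in replicates 2 and 3 was 1.63-fold (log2 difference -0.71, SE 0.14, adjusted p = 0.0288, limma), and NGPF2 1 was the highest of the 6. Wnt10a (ENSMUSG00000026167, chromosome 1, 74791516 to 74804179), a canonical ligand known from skin and tooth development, was the gene that rose. It stood at 4.51, 28.6 and 13.1 normalized counts with vehicle and 3.20, 109 and 120.2 with NGPF2, from 5 to 91 counts. It was lowest in the 2 libraries of replicate 1, and in replicates 2 and 3 it rose 5.65-fold (log2 difference 2.497, SE 0.42, adjusted p = 0.0172, limma). Its 2 highest libraries were NGPF2 2 and 3, 109 and 120.2 normalized counts, where no other library was above 28.6.

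**Figure D2:**
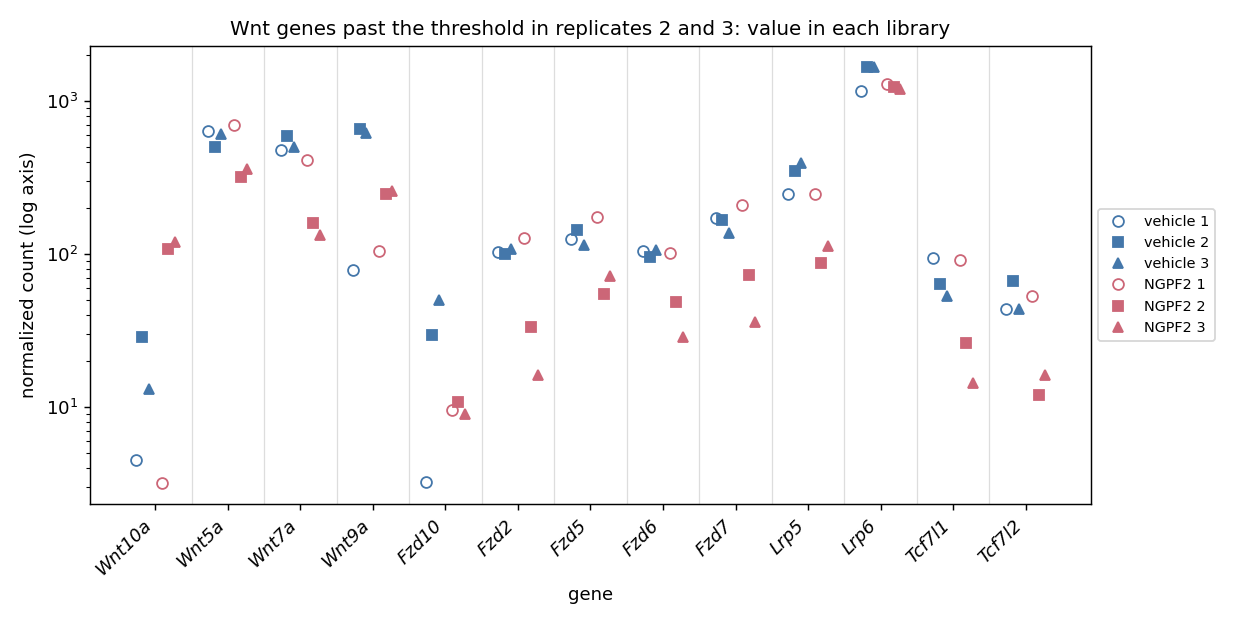
Normalized count (log axis) in each library for the 13 genes that passed the threshold in replicates 2 and 3; blue is vehicle, red is NGPF2, and open circles are replicate 1. The filled red symbols of 12 genes lie below the filled blue ones, and those of Wnt10a lie above. The genes were picked by these same libraries, so that separation is built in.

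Wnt7b (ENSMUSG00000022382, chromosome 15, 85535437 to 85582473), a ligand of cortical neurons known for dendrite growth, was the ligand with the highest level per kilobase of exon, a mean of 623 normalized counts per kilobase. It stood at 1858, 4270.1 and 4339 normalized counts with vehicle and 2911, 3055 and 1881 with NGPF2. Pair 1 was higher with NGPF2 and pairs 2 and 3 lower, with log2 differences of 0.65, -0.48 and -1.21. It did not pass in replicates 2 and 3 (log2 difference -0.84, SE 0.23, adjusted p = 0.0573, limma), and passed with the replicate number as a block (adjusted p = 0.0177, limma). Its size in pair 1 was larger than that of 98.0% of the 5813 genes whose mean reached 1000 normalized counts, whose median size was 0.0572 there. That comparison is of 1 library with 1, and the test of the difference between the batches did not pass (log2 difference -1.49, SE 0.40, adjusted p = 0.131, limma interaction).

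Wnt4 and Wnt2 were higher with NGPF2 in every pair. Wnt4, a ligand of kidney and gonad development that is also made by neurons, stood at 129, 929.8 and 769 normalized counts with vehicle and 166, 1184 and 1119.9 with NGPF2, and its log2 differences were 0.36, 0.35 and 0.54. It did not pass in replicates 2 and 3 (log2 difference 0.44, SE 0.12, adjusted p = 0.057, limma), where the adjusted p was 0.0437 with the replicate block. Wnt2, a ligand known from lung development, stood at 58.0, 40.2 and 25.0 normalized counts with vehicle and 70.4, 78.9 and 68.2 with NGPF2 and did not pass either (log2 difference 1.18, SE 0.33, adjusted p = 0.0604, limma). Both were named after their values were seen. The other tested ligands, Wnt1, Wnt2b, Wnt5b, Wnt6, Wnt9b, Wnt10b and Wnt16, did not pass, with adjusted p from 0.156 to 0.995 (limma).

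Of the 10 Frizzled receptors 5 fell in replicates 2 and 3 and none rose, where 11.3% of all genes tested fell and 9.77% rose. The 5 had mean levels from 5.75 to 29.3 normalized counts per kilobase, and the abundant Fzd3 was not among them. These calls depended on the settings. With all libraries kept, Fzd2 passed in 5 of 7 alternative settings, Fzd6 and Fzd7 in 4 of 7 and Fzd5 in 3 of 7. With quantile normalization the Frizzled genes that passed were Fzd2 and Fzd3, and without a trend in the variance prior none did. Fzd2 (ENSMUSG00000050288, chromosome 11, 102604396 to 102608058), a receptor for Wnt5a, stood at 103, 100.03 and 107 normalized counts with vehicle and 127, 33.5 and 16.2 with NGPF2. The 3 vehicle libraries and NGPF2 1 lay close together, and NGPF2 2 and 3 rested on 28 and 9 counts. The fall was 4.30-fold (log2 difference -2.11, SE 0.40, adjusted p = 0.0241, limma). Fzd7 (ENSMUSG00000041075, chromosome 1, 59482424 to 59486955), a receptor of stem and progenitor cells, stood at 173, 167 and 138 normalized counts with vehicle and 209, 72.9 and 35.9 with NGPF2, again with NGPF2 2 and 3 lowest (log2 difference -1.55, SE 0.38, adjusted p = 0.0446, limma).

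Fzd5 (ENSMUSG00000045005, chromosome 1, 64730558 to 64737751), a receptor known from eye and synapse development, stood at 126, 145 and 115 normalized counts with vehicle and 175, 55.0 and 71.8 with NGPF2. NGPF2 1 was the highest library and NGPF2 2 and 3 the lowest (log2 difference -1.02, SE 0.25, adjusted p = 0.0441, limma). With the replicate block the adjusted p of Fzd5 was 0.0516. Exons of Fzd5 overlap those of another annotated gene, Gm38058, on the other strand, and reads of the pair cannot be told apart without the strand, which the sources do not give for the counting. Exons of Wnt5a, Wnt7b, Fzd6, Tcf7l1, Ctnnb1, Axin2, Dvl1, Dvl2, Sfrp2 and Lef1 overlap another annotated gene too, and their values carry the same doubt. Fzd6 (ENSMUSG00000022297, chromosome 15, 39006034 to 39038188), a receptor of planar cell polarity, stood at 104, 96.5 and 106 normalized counts with vehicle and 101, 49.0 and 28.7 with NGPF2, so that only NGPF2 2 and 3 stood away from the rest (log2 difference -1.41, SE 0.32, adjusted p = 0.0395, limma). Fzd10 (ENSMUSG00000081683, chromosome 5, 128600844 to 128604093), a receptor of the dorsal neural tube, stood at 3.22, 29.5 and 50.1 normalized counts with vehicle and 9.60, 10.8 and 8.97 with NGPF2. It was low in replicate 1 and high in vehicle 2 and 3, and NGPF2 2 and 3 were near the level of NGPF2 1 (log2 difference -1.87, SE 0.42, adjusted p = 0.0373, limma). Its counts ran from 5 to 42 per library, and it passed in 2 of 6 alternative settings that keep all libraries.

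Fzd3 (ENSMUSG00000007989, chromosome 14, 65192449 to 65262463), a receptor needed for axon tracts, had the highest level of the class, a mean of 653 normalized counts per kilobase. It stood at 6584, 10039 and 9555 normalized counts with vehicle and 7226, 7767 and 9008 with NGPF2. NGPF2 2 and 3 lay between the 2 libraries of replicate 1 and vehicle 2 and 3, and the difference did not pass (log2 difference -0.23, SE 0.09, adjusted p = 0.143, limma). The remaining receptors Fzd1, Fzd4, Fzd8 and Fzd9 did not pass either, with adjusted p of 0.0505, 0.36, 0.45 and 0.286 (limma). Fzd1 was nearest to the threshold, with log2 differences of 0.02, -0.39 and -0.53 in pairs 1, 2 and 3. Fzd8 was the 1 receptor above vehicle in all 3 pairs, by 0.09, 0.19 and 0.19.

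Both co-receptors fell in replicates 2 and 3, Lrp5 by more, where 11.3% of all genes tested fell. Lrp5 (ENSMUSG00000024913, chromosome 19, 3584828 to 3686564), known from bone mass and retinal vessels, stood at 248, 350.1 and 396 normalized counts with vehicle and 246, 87.3 and 113 with NGPF2. In pair 1 both libraries held nearly the same value, and NGPF2 2 and 3 were below all others. The fall was 3.72-fold (log2 difference -1.90, SE 0.19, adjusted p = 0.00527, limma), and the test of a difference between the batches gave an adjusted p of 0.0588 (limma interaction) and of 0.04 with the replicate block. Lrp6 (ENSMUSG00000030201, chromosome 6, 134446476 to 134566965), the co-receptor with the higher level per kilobase, stood at 1159, 1679 and 1681 normalized counts with vehicle and 1289, 1234 and 1194 with NGPF2. Vehicle 2 and 3 were above the other 4 libraries, which lay close together, and the fall was 1.38-fold (log2 difference -0.47, SE 0.07, adjusted p = 0.0152, limma).

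None of the 5 secreted inhibitors passed between NGPF2 and vehicle. In replicates 2 and 3 11.3% of all genes tested fell and 9.77% rose, so a class this small may hold none. Dkk3, a Dickkopf family member abundant in neurons that is not a typical antagonist of the co-receptors, had the highest level per kilobase of the class, at 445, 1532 and 1486 normalized counts with vehicle and 448, 1772 and 1608 with NGPF2. The difference was small beside that between the batches (log2 difference 0.16, SE 0.08, adjusted p = 0.233, limma). Sfrp1, a secreted Frizzled-related protein that binds ligands, stood at 1925, 473 and 529.6 normalized counts with vehicle and 1868, 397 and 309 with NGPF2, lower with NGPF2 in every pair, and did not pass in replicates 2 and 3 (log2 difference -0.52, SE 0.16, adjusted p = 0.0833, limma). Dkk2, an antagonist of Lrp5 and Lrp6, stood at 67.1, 4.47 and 3.58 normalized counts with vehicle and 57.6, 14.3 and 26.9 with NGPF2, on 3 to 15 counts in replicates 2 and 3, and did not pass (log2 difference 2.05, SE 0.53, adjusted p = 0.0529, limma). Sfrp2 and Sfrp4 had adjusted p of 0.295 and 0.739.

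None of the 3 Dishevelled genes and 2 Axin genes, the relay between receptor and beta-catenin, passed between NGPF2 and vehicle. Here too the classes are small beside the 11.3% of all genes tested that fell and 9.77% that rose in replicates 2 and 3. Dvl1 (ENSMUSG00000029071, chromosome 4, 155847402 to 155859303), the Dishevelled gene with the highest level per kilobase, stood at 2768, 2311 and 2499.9 normalized counts with vehicle and 2607, 2782 and 2518 with NGPF2, and the groups overlapped (log2 difference 0.14, SE 0.09, adjusted p = 0.308, limma). Dvl2 and Dvl3 had adjusted p of 0.116 and 0.709. Axin1 (ENSMUSG00000024182, chromosome 17, 26138688 to 26195811), a scaffold of the complex that degrades beta-catenin, stood at 845, 691 and 706 normalized counts with vehicle and 819, 728 and 808 with NGPF2 (log2 difference 0.13, SE 0.10, adjusted p = 0.382, limma). Axin2, whose promoter window is printed above, stood at 402, 312 and 336 normalized counts with vehicle and 378, 409 and 384 with NGPF2. NGPF2 2 and 3 were above vehicle 2 and 3 without passing (log2 difference 0.29, SE 0.12, adjusted p = 0.15, limma), and in pair 1 NGPF2 was the lower library. A difference of Axin2 that misses the threshold does not show that it did not change.

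Among the nuclear effectors, the Tcf7l genes fell and beta-catenin did not pass. Ctnnb1 (ENSMUSG00000006932, chromosome 9, 120929216 to 120960507) had the highest level per kilobase of all the genes described, at 18237, 14496 and 18441 normalized counts with vehicle and 16509.9, 19767 and 18392 with NGPF2, and its groups overlapped (log2 difference 0.22, SE 0.13, adjusted p = 0.27, limma). Tcf7l2 (ENSMUSG00000024985, chromosome 19, 55741820 to 55933654), an effector known from glial precursors and thalamic neurons, stood at 43.8, 67.0 and 44.1 normalized counts with vehicle and 53.1, 11.96 and 16.2 with NGPF2, on 10 and 9 counts in NGPF2 2 and 3. Those libraries were the lowest of the 6, and the fall was 3.72-fold (log2 difference -1.89, SE 0.37, adjusted p = 0.0269, limma). Tcf7l1 (ENSMUSG00000055799, chromosome 6, 72626378 to 72789254), which mostly acts as a repressor, stood at 94.1, 64.3 and 53.7 normalized counts with vehicle and 92.1, 26.3 and 14.4 with NGPF2, again with NGPF2 2 and 3 lowest, on 22 and 8 counts (log2 difference -1.55, SE 0.39, adjusted p = 0.0484, limma). Tcf7 stood at 41.3, 24.1 and 34.6 normalized counts with vehicle and 30.7, 44.2 and 19.7 with NGPF2 with overlapping groups (adjusted p = 0.967, limma). Lef1, which was below the limit of 10, held 30, 8 and 6 counts in vehicle 1, 2 and 3, 28 in NGPF2 1 and 0 in NGPF2 2 and 3. Against the 3 counts per library that a count of 0 allows, the vehicle mean as observed was 1.59-fold higher in replicates 2 and 3. That figure leaves out the counting error of the 8 and 6 vehicle counts, so the fall may be smaller. Without the limit Lef1 passed in replicates 2 and 3 (adjusted p = 0.0341, limma) and in the interaction (adjusted p = 0.0184, limma), where both NGPF2 libraries are at 0 and show no spread.

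Per kilobase of exon, which allows levels to be compared between genes, the ligand class was led by Wnt7b in every library, and the place behind it differed between libraries. Wnt7b made up 49.0%, 52.8% and 56.2% of the summed ligand level with vehicle and 59.4%, 51.2% and 39.9% with NGPF2. Wnt7a came next in replicate 1, at 19.7% and 12.9%. In replicates 2 and 3 Wnt4 made up 13.4% and 11.6% with vehicle and 23.2% and 27.8% with NGPF2. It came next in each of these libraries other than vehicle 3, where Wnt9a held 11.8%. Wnt7a went there from 11.4% and 9.96% with vehicle to 4.15% and 4.35% with NGPF2. The summed ligand level was 773, 1651 and 1577 normalized counts per kilobase with vehicle and 1001, 1218 and 962 with NGPF2. Fzd3 held 58.3% and 58.4% of the Frizzled level in replicate 1 and 66.1% to 75.0% in replicates 2 and 3. These shares are descriptions, and no test was made of them.

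**Figure D3:**
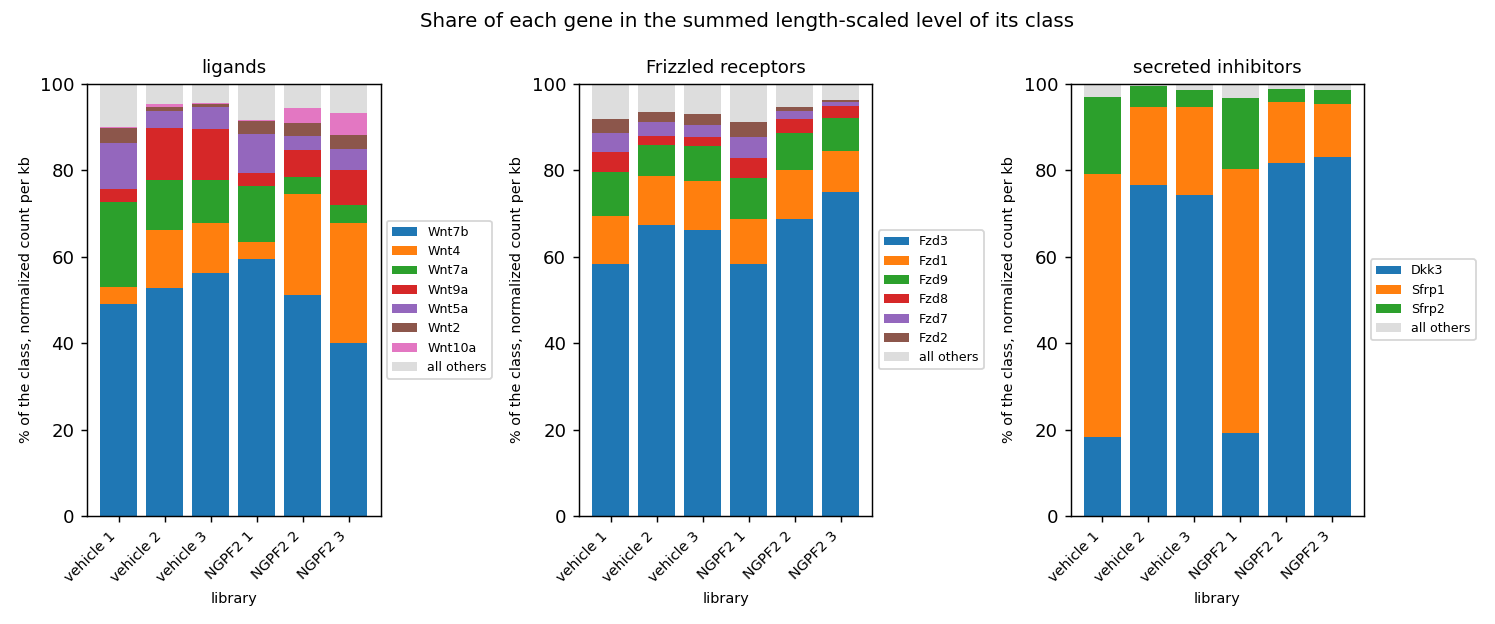
Share (%) of each gene in the summed normalized count per kilobase of its class, for ligands, Frizzled receptors and secreted inhibitors, in each of the 6 libraries. Wnt7b and Fzd3 take the largest part of their class throughout, and the inhibitors are led by Sfrp1 in both libraries of replicate 1 and by Dkk3 in the other 4.

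The libraries of replicate 1 differed from the rest in their Wnt genes without treatment. Between vehicle 2 and 3 and vehicle 1, 12 of the 40 genes passed (limma, 2 libraries against 1 in a fit of all 6), 7 higher in replicates 2 and 3 (17.5%, against 10.5% of all genes tested) and 5 lower (12.5%, against 9.42%). Higher were Wnt4, Wnt7b, Wnt9a, Fzd3, Fzd10, Lrp6 and Dkk3, and lower were Fzd8, Dvl3, Dkk2, Sfrp1 and Sfrp2. Wnt9a (log2 difference 3.01, SE 0.16, adjusted p = 0.00173, limma) and Wnt4 (log2 difference 2.70, SE 0.16, adjusted p = 0.00191, limma) were among those higher in replicates 2 and 3. Among the inhibitors the order was turned round. Dkk3 was 3.39-fold higher in vehicle 2 and 3 than in vehicle 1 (log2 difference 1.76, SE 0.11, adjusted p = 0.00202, limma), and Sfrp1 was 3.84-fold lower (log2 difference -1.94, SE 0.19, adjusted p = 0.00503, limma). Sfrp2 stood at 279.9, 63.4 and 51.3 normalized counts with vehicle and 249, 43.0 and 41.3 with NGPF2 and was 4.84-fold lower in vehicle 2 and 3 (log2 difference -2.27, SE 0.26, adjusted p = 0.00754, limma). Sfrp1 made up 60.7% and 61.1% of the inhibitor level in vehicle 1 and NGPF2 1 and 12.2% to 20.3% in the other 4 libraries.

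Over both groups, the 4 libraries of replicates 2 and 3 all lay above both libraries of replicate 1 for 8 of the 40 genes (20.0%, against 24.9% of all genes tested), and all below them for 13 (32.5%, against 26.9%). Of the 12 genes that passed between the vehicle batches, 9 were among these, with Wnt4, Wnt9a, Fzd3 and Dkk3 on the higher side and Fzd8, Dvl3, Dkk2, Sfrp1 and Sfrp2 on the lower. The 12 were picked by the same vehicle libraries, so a high count is partly built in. The share among all genes that passed between the vehicle batches was not taken. Cell type markers differed between the vehicle batches as well. Of 13 astrocyte markers 10 were higher in vehicle 2 and 3 and 0 lower, with the sums given above, as were 6 of 8 cycling cell markers with 0 lower. Of 8 markers of neurons in general 4 were higher and 2 lower, and of 11 microglia markers 2 were lower and 0 higher. Of 10 progenitor markers 3 were higher and 2 lower, of 6 oligodendrocyte precursor markers 2 were higher and 1 lower, and of 9 oligodendrocyte markers 2 were higher. Of 10 excitatory neuron markers 2 were higher and 2 lower, and no endothelial or choroid plexus marker passed. Of 11 fibroblast and mural markers 6 were lower in vehicle 2 and 3, with sums of 1273 and 1171 against 4952 in vehicle 1, and 0 were higher. With NGPF2 their sums were 4514, 466 and 472 in replicates 1, 2 and 3. Of 10 inhibitory neuron markers 9 were lower and 1 higher in vehicle 2 and 3, with sums of 49697 and 53598 against 120373. Their part in the differences was not tested. Vehicle 1 is 1 library, and without vehicle 2 or without vehicle 3 the count of Wnt genes that passed was 0 (limma), with 12 of the 40 (30.0%) at an unadjusted p under 0.05 in each case, against 22.8% and 23.1% of all genes.

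**Figure D4:**
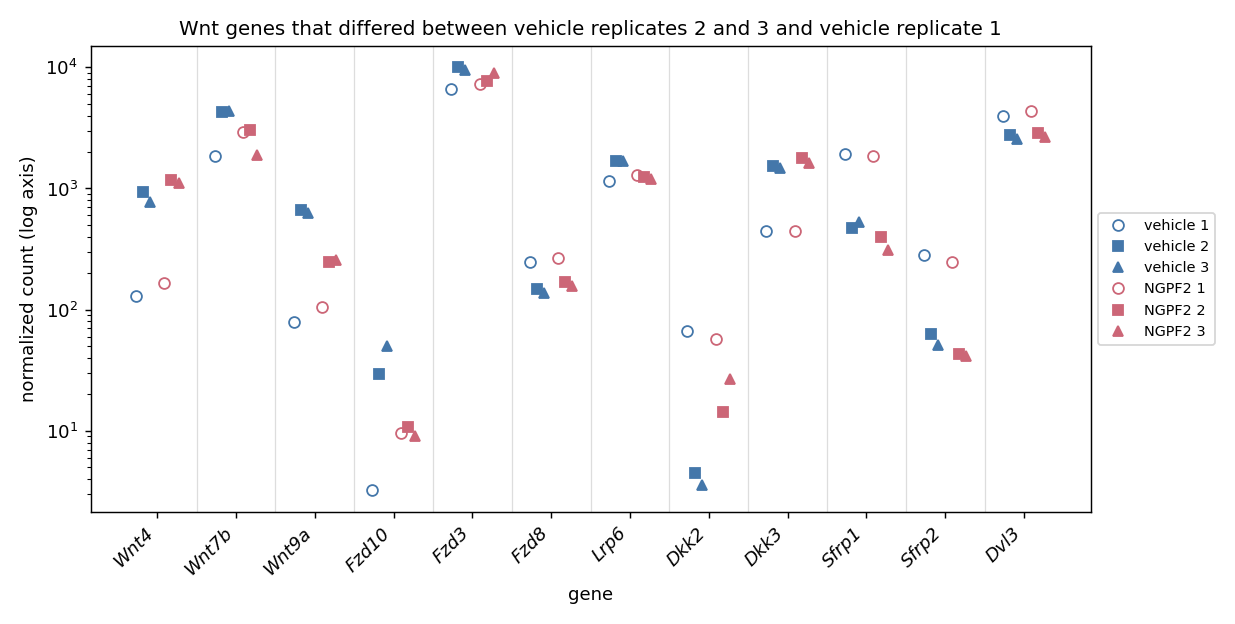
Normalized count (log axis) in each library for the 12 genes that passed between vehicle replicates 2 and 3 and vehicle replicate 1; blue is vehicle, red is NGPF2, and open circles are replicate 1. The open circles of both groups lie on one side of all filled symbols for 9 of the 12 genes, and overlap with them for Wnt7b, Fzd10 and Lrp6.

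Other genes of the pathway went both ways. Of 61 further pathway genes listed 57 were tested, and in replicates 2 and 3 9 rose (15.8%, against 9.77% of all genes) and 10 fell (17.5%, against 11.3%). Its median log2 difference by pair was 0.03, 0.07 and -0.04. Higher were Frzb, a secreted Frizzled-related inhibitor outside the Sfrp names (log2 difference 0.90, SE 0.11, adjusted p = 0.00827, limma), the R-spondin receptors Lgr5 and Lgr6, Adgra2, the co-receptor of Wnt7 signals in vessels, and Prickle2, Celsr2, Dact3, Tle3 and Amer1. Lower were Daam2, a formin of the Dishevelled branch (log2 difference -2.56, SE 0.19, adjusted p = 0.00273, limma), Tspan12, a Frizzled partner (log2 difference -1.36, SE 0.16, adjusted p = 0.00727, limma), Vangl1 and Vangl2, polarity proteins, the receptors Ryk and Ptk7, the ligands Rspo3 and Ndp, Pygo1 and the kinase Gsk3b. Daam2 was the 1 gene of this list whose effect differed between the batches (log2 difference -2.62, SE 0.33, adjusted p = 0.033, limma interaction). It stood at 393, 1069.99 and 1016 normalized counts with vehicle and 409, 210.4 and 147 with NGPF2.

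The 15 genes listed as induced by beta-catenin with Tcf and Lef, 3 of which belong to the 44 (Axin2, Lef1 and Tcf7), went both ways. Of 11 tested, Ccnd1, a cyclin, and Cd44, an adhesion receptor, fell in replicates 2 and 3, and Lgr5 rose. Of all genes tested 11.3% fell there and 9.77% rose, and counts this small were not tested against those shares. Ccnd1 stood at 2975, 4359 and 4263 normalized counts with vehicle and 2774, 2286 and 1935 with NGPF2 (log2 difference -1.04, SE 0.10, adjusted p = 0.0046, limma), and the cycling cell markers fell in the same libraries. Lgr5 stood at 89.0, 21.4 and 23.9 normalized counts with vehicle and 76.1, 59.8 and 59.2 with NGPF2 (log2 difference 1.36, SE 0.27, adjusted p = 0.0281, limma), so that NGPF2 2 and 3 lay between their vehicle libraries and replicate 1. The median log2 difference by pair was -0.10, 0.17 and 0.14. Notum, Sp5, Fgf20 and Lef1 were below the limit of 10. Lgr5, Notum, Rnf43, Znrf3, Apcdd1 and Nkd1 are also among the 61 further pathway genes. The rise of Lgr5 is therefore counted in both lists.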

How the data were processed

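RNA of 6 cultures was measured by sequencing after poly(A) selection, per the labels' protocols. FastQC, STAR 2.5, Cuffnorm, DESeq 1.22.1 and build mm10 appear in the submitters' processing notes. Those do not say which tool did what, and the annotation, counter and strand setting are not given in these sources. Although called FPKM, the deposited values are on a log2 scale, of a normalized count with 1 added, as read from the deposited values: 2 to the value, less 1, gave whole multiples of 1 step in 100% of values (tolerance 0.01 of a count), and the steps matched median-of-ratios size factors. Counts recovered so are used for depths, low genes and voom. They total 17478070 to 45193691 per library, and limits set from them cover only the counting error of a count of 0. Columns of replicates 2 and 3 carry the names in the sample titles. The 2 other columns were assigned to replicate 1 of the group their initial names, by elimination.

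Symbols came from GENCODE M21, where 31185 of 31245 identifiers matched, and levels per kilobase use its merged exons. limma 3.58.1 (R 4.3.3) was run on the log2 values with a trend in the variance prior, on 16653 genes with a mean normalized count of 10 or more, with Benjamini-Hochberg adjustment over these and a threshold of 0.05. A pseudocount of 1 is that of the deposited values. The 4 fits were NGPF2 against vehicle over 3 pairs with the replicate number as a block; the same in replicates 2 and 3 without a block; the difference of these effects from that of replicate 1; and vehicle replicates 2 and 3 against vehicle replicate 1. The last 2 used all 6 libraries. Same-numbered libraries deviated together (r of the deviations from the group means 0.594, 0.299 and 0.333). Within replicates 2 and 3 alone the value was -0.015. Over all 6 libraries, vehicle 2 with NGPF2 3 gave 0.342 and vehicle 3 with NGPF2 2 gave 0.32, so libraries with unlike numbers deviated together as well. The scripts were tested on simulated data. The series' design text calls the pairs separate experiments.

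Genes named with full values are those past the threshold and the one with the highest level per kilobase in each role. Other single values, among them those of Wnt2, Wnt4, Fzd1, Fzd8, Dkk2, Sfrp1, Sfrp2, Axin2, Tcf7, Lef1, Frzb, Daam2, Tspan12, Ccnd1 and Lgr5, were chosen after they were seen. The members, marker lists and pathway lists were chosen with earlier results of these data known. Alternatives were another pseudocount, filter, scaling, variance prior and block, voom, and leaving out libraries. The 250 bases before a gene's start came from RefSeq (GRCm38.p6), which held 31 of the 44 genes.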

Additional observations from a re-analysis of the deposited data

Results flagged for a closer look

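The effect of NGPF2 on Wnt9a differed between the batches of libraries by a test of the difference itself. The log2 effect in replicates 2 and 3 minus that in replicate 1 was -1.75 (SE 0.23, adjusted p = 0.0341, limma interaction). NGPF2 was below vehicle in pairs 2 and 3 and above it in pair 1. Replicate 1 has 1 library per group. Without any single library of replicates 2 and 3 the adjusted p was between 0.0567 and 0.352. With all libraries kept and no trend in the variance prior it was 0.081.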

How the results depend on the processing

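No direction reversed among the genes followed through the alternatives, and other Wnt genes were not followed. Over 3 pairs these were the genes that passed in replicates 2 and 3, with Wnt2 and Wnt4. In replicates 2 and 3 they were the genes named with full values, with Dkk2, Sfrp1, Sfrp2, Wnt2, Wnt4 and Axin2. For the difference of effects they were Wnt9a, Wnt7a, Lrp5 and Wnt7b, and between the vehicle batches those that passed there. Over 3 pairs, 1 gene of all tested passed with a pseudocount of 10, 1 with no replicate block and 1 with the batch as the block, and 0 Wnt genes did; leaving out each pair gave 0 to 3275 genes, 0 to 2 Wnt genes higher and 0 to 12 lower, the upper values without replicate 1. In replicates 2 and 3, with 12 Wnt genes lower and 1 higher of 3511 genes in all, 2 were higher with a pseudocount of 10, 2 with a mean of at least 50, 4 with quantile normalization and 3 with voom. Without a filter 3 were lower (Wnt9a, Lrp6 and Lef1) and 0 higher, of 1074 genes, and without a trend in the variance prior 5 were lower, of 1535 genes. Leaving out a library gave 0 to 3206 genes, 0 to 10 Wnt genes lower and 0 to 1 higher. Wnt9a passed in 7 of 7 settings that keep all libraries, Wnt7a, Lrp5 and Lrp6 in 6 of 7, and Fzd10 in 2 of 6. For the difference of effects, with 1 Wnt gene of 415 genes, 3 were lower with a pseudocount of 10, 3 with a mean of at least 50 (733 genes), 3 without a filter (4684 genes), 6 with voom (1472 genes) and 0 without a trend (22 genes); leaving out a library gave 0 to 412 genes and 0 to 1 Wnt genes lower. Between the vehicle batches, with 7 higher and 5 lower of 3322 genes, there were 4 higher and 3 lower without a filter, 3 lower without a trend (1232 genes) and 5036 genes with voom; leaving out a library gave 0 to 3898 genes, 0 to 8 Wnt genes higher and 0 to 5 lower. The cause of these moves was not tested, save that a fit with 1 library in an arm has fewer samples and takes that library to vary like the others. The replicate block in replicates 2 and 3 gave 12 lower and 2 higher Wnt genes, with Fzd5 lost and Wnt4 and Wnt7b gained, and with the batch interaction 3 lower (Wnt7a and Lrp5 gained); no other Wnt gene's call changed. The planned quasi-likelihood count test of edgeR was not run, although whole counts were recovered. The only fit on those counts was voom. Genes under about 20 counts in a library, such as Fzd10, Tcf7l2 and Dkk2, are limited by depth.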
